A study of Mus musculus with 6 samples.

Results

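The keratins of luminal and of basal type were followed in a mouse cancer cell model expressing rat her-2/neu. The cells were left untreated or given withaferin A, a steroidal lactone that the plant Withania somnifera makes. The 10 genes are Krt7, Krt8, Krt18 and Krt19, which are keratins of simple (luminal) epithelium, Krt5, Krt14, Krt15 and Krt17, which are keratins of basal cells, and Krt6a and Krt23, which belong to neither set. The members were every probe whose platform annotation carries one of these 10 symbols, which gave 12 probes among the 45281 on the array, or 10 of 19057 annotated genes. RNA came from 3 untreated samples and 3 samples given 8 µM withaferin A for 6 h, and each sample was hybridised to 1 Illumina mouse bead array. All 6 samples carry the rat her-2/neu oncogene, which encodes a receptor tyrosine kinase, and were grown in DMEM with 20% serum, gentamicin and l-glutamine at passages 2, 3 and 4. The tissue and mouse strain of the cells, the promoter of the oncogene, whether the cells are 1 clone, and whether the untreated samples received a vehicle are not given in the sources used here. The labels do not tie the passages to single samples or say whether the samples of a group were treated separately, so p-values measure only the spread between these arrays.

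Keratins are the intermediate filament proteins of epithelial cells. A filament is built from pairs of a type I keratin (among them Krt14 to Krt19 and Krt23) and a type II keratin (Krt5 to Krt8), and each epithelial layer has its habitual pairs. In the mammary gland Krt8 pairs with Krt18 in the luminal layer, where Krt7 and Krt19 also occur, and Krt5 pairs with Krt14 in the basal layer. Krt6a, Krt16 and Krt17 are known as stress keratins, which epidermis makes after wounding. Withaferin A is known to bind vimentin, the intermediate filament protein of mesenchymal cells.

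A probe was taken as above background on an array where its detection p was under 0.05, and it was tested where this held on at least 3 of the 6 arrays, whichever group they came from. The arrays had median raw intensities of 77.1 to 81.9 and between 18275 and 20104 detected probes. Of 9756 genes tested, 666 passed an adjusted p of 0.05 in limma, a linear model with variances moderated across probes, and that count fell to 309 without untreated array 3, to 242 without withaferin A array 1 and to 322 without withaferin A array 2. The median log2 change over all genes tested was 0.0054, with the middle of the distribution lying between -0.26 and 0.23 (quartiles). In bulk RNA, fewer cells making a transcript and less of it per cell cannot be told apart. Intensities of different probes are not comparable as levels, so genes are compared only by detection and by change.

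A tested probe was found for 6 of the 10 genes, where 51.2% of all annotated genes had one, and 6 of the 12 probes were tested, against 42.1% of all probes. These were Krt7, Krt8, Krt18 and Krt19 of the simple set, Krt14 of the basal set, and Krt23. Of the 12 probes, 4 were below background on every array, namely those of Krt5, both of Krt6a, and the other probe of Krt8. Krt15 was above background on 2 arrays, 1 in each group, and Krt17 on 1 withaferin A array. Of the 6 tested genes 2 passed the test, Krt14 higher and Krt23 lower, where 6.83% of all tested genes passed, 2.81% higher and 4.02% lower. Krt23 entered the test through the untreated arrays alone, so this count over tested members is a description.

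**Figure D1:**
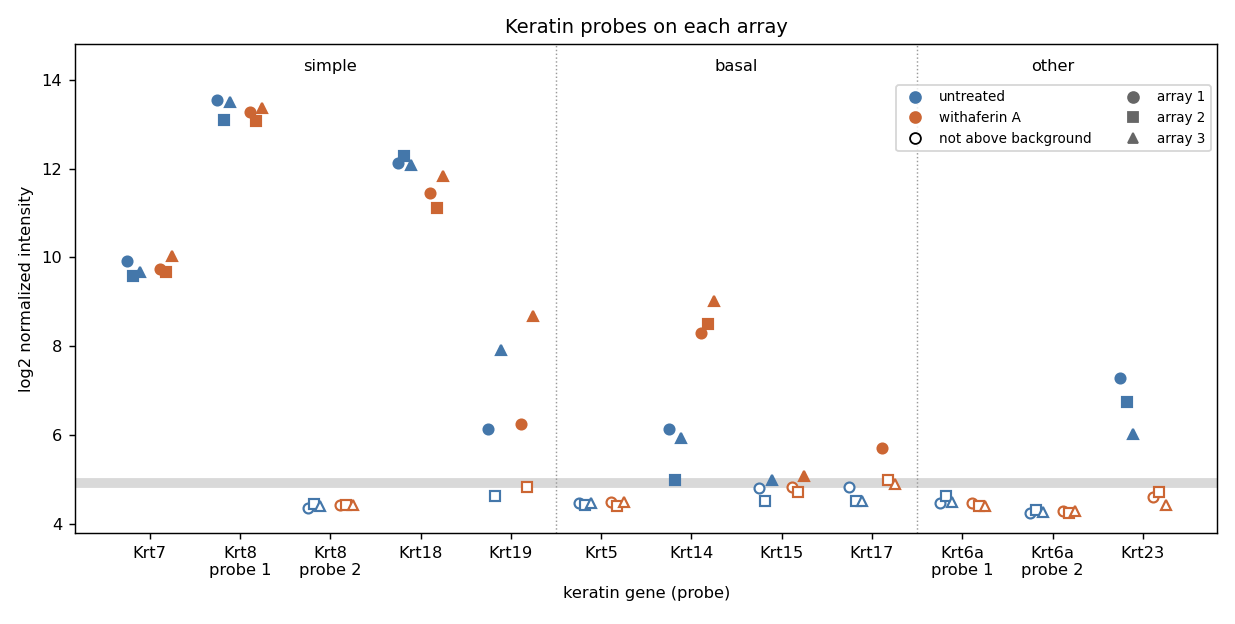
Log2 normalized intensity (vertical axis) of the 12 probes of the 10 keratin genes (horizontal axis) on each of the 3 untreated and 3 withaferin A arrays, with open symbols where the detection p was 0.05 or more and a grey band spanning the lowest detected value of each array. The Krt14 points of the withaferin A arrays all lie above those of the untreated arrays, the Krt23 points all lie below, and Krt5 and Krt6a stay under the band on all 6 arrays.

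The simple keratins Krt7 and Krt8 differed by less than the spread between arrays, and Krt18 was lower on every withaferin A array without passing the adjusted test. Krt8, the type II keratin that luminal cells make from early development on, had raw intensities of 13205.9, 8879.5 and 11723.3 in the untreated group (arrays 1 to 3) and of 9319.1, 8516.5 and 10090 in the treated group (arrays 1 to 3). The groups overlapped. Its log2 intensity was 13.37 ± 0.25 without and 13.23 ± 0.15 with withaferin A (SD, n = 3 each), a log2 change of -0.14 (95% confidence interval -0.54 to 0.25, limma adjusted p = 0.665). The other Krt8 probe read 67.3 to 71.5 on the 6 arrays and was at background on each, so the 2 probes of this gene disagree on its presence.

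Krt18, the type I partner of Krt8, had raw intensities of 5088.9, 5290 and 4161.6 in the untreated group and of 2570.9, 2291.9 and 3407.1 in the treated group. Every untreated array lay above every withaferin A array. The log2 intensity was 12.17 ± 0.11 without and 11.47 ± 0.36 with withaferin A, a log2 change of -0.70 (SE 0.20, 95% confidence interval -1.14 to -0.26), or 1.62-fold lower, with an unadjusted p of 0.00564 and an adjusted p of 0.0674 in limma. It ranked 626 of 9756 genes from the most negative change. Groups without overlap were seen for 3 of the 6 tested keratins (Krt14, Krt18 and Krt23) and for 30.7% of all tested genes. The same 3 keratins had an unadjusted p under 0.05, as did 26.0% of all tested genes. The adjusted p ranged from 0.00865 to 0.201 over 16 alternatives in limma and passed in 5. Of these, 3 were other scalings or weightings (0.0180 without normalization between arrays, 0.0199 with median scaling, 0.00865 with array weights). Another was the fit lacking the treated array 3 (0.0232). The last was the authors' deposited value table (0.0124), which was compared as same-numbered pairs, unlike the main fit. Wherever a call from that table is given below, the table and the pairing cannot be told apart.

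Taken as a difference within each array, log2 Krt18 minus log2 Krt8 was -1.41, -0.80 and -1.41 in the untreated group and -1.83, -1.94 and -1.53 in the treated group. The mean moved from -1.21 ± 0.35 to -1.76 ± 0.21 (SD, n = 3 each), a difference of -0.56, and the groups did not overlap. It is given as a description of these arrays, with no test.

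Krt7, a type II keratin of ducts and glands, had raw intensities of 1151.7, 924.9 and 858.8 in the untreated group and of 806, 852.3 and 984.9 in the treated group. These groups overlapped. The log2 change was 0.086 (95% confidence interval -0.29 to 0.46, limma adjusted p = 0.798), and its sign turned without normalization between arrays (-0.15), with median scaling (-0.11), with array weights (-0.018) and without withaferin A array 3 (-0.022).

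Krt19, a small type I keratin with hardly any tail domain, stood apart through its spread between arrays of one group. It read 137, 79.6 and 303 in the untreated group (arrays 1 to 3) and 120.5, 81.1 and 420.1 in the treated group (arrays 1 to 3). In each group array 3 was the highest, and array 2 the lowest and not above background. The log2 intensity was 6.23 ± 1.63 without and 6.59 ± 1.95 with withaferin A (SD, n = 3 each), a log2 change of 0.35 with a 95% confidence interval of -1.81 to 2.51 (limma adjusted p = 0.863). Its within-group SD, 1.80 on the log2 scale, ranked 1 among the 9756 genes tested, whose median was 0.22. The within-group SD of the other simple keratins was 0.18 (Krt7), 0.21 (Krt8) and 0.26 (Krt18). The change had the opposite sign without untreated array 2 (-0.43) and without withaferin A array 3 (-0.70). Both fits kept the same-numbered array of the other group. Same-numbered arrays differed by 0.10, 0.18 and 0.77 (arrays 1 to 3, withaferin A minus untreated). With the array number as a block, limma gave an adjusted p of 0.259, so Krt19 was not called and no direction is given for it.

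**Figure D2:**
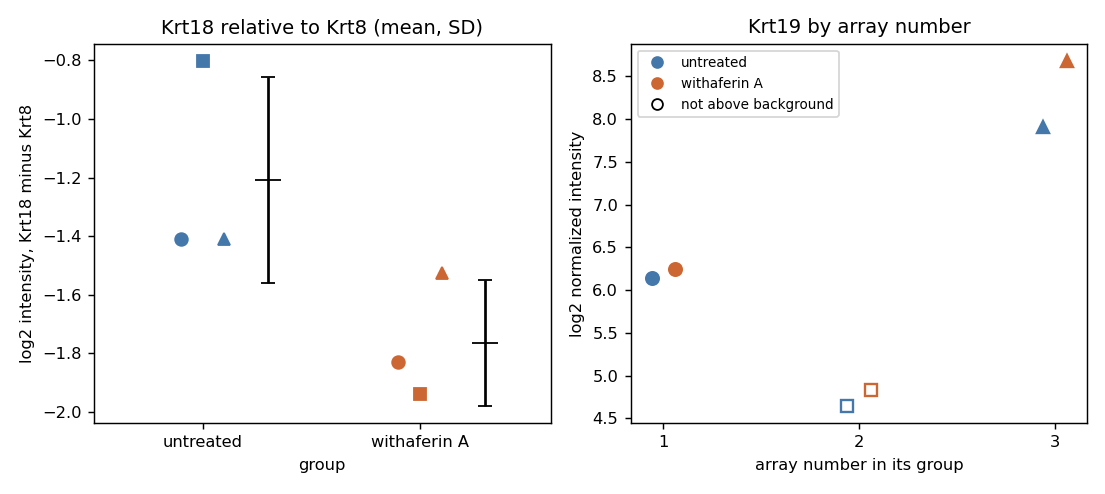
Left, log2 intensity of Krt18 minus that of Krt8 on each array (points, shaped by array number) with the mean and SD of each group of 3. Right, log2 intensity of Krt19 against array number, with open symbols where it was not above background; same-numbered arrays of the groups lie within 0.77 of each other, and numbers 1 to 3 span 4.65 to 7.91 untreated and 4.83 to 8.68 with withaferin A.

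Of the basal keratins, Krt14 rose and its habitual partner Krt5 was below background in both groups. Krt14, the type I keratin of basal and myoepithelial cells, had raw intensities of 136.6, 90.8 and 120.7 in the untreated group and of 327.2, 403.3 and 521.6 in the treated group. It was above background on all 6 arrays and the groups did not overlap. Its log2 intensity rose from 5.70 ± 0.61 to 8.61 ± 0.38 (SD, n = 3 each), a log2 change of 2.92 (SE 0.30, limma adjusted p = 0.000761) or 7.55-fold, and it ranked 33 of 9756 genes from the largest rise. The untreated level was dim, and the size of the rise depended on the background correction, which gave 3.71-fold when left out, against 4.10-fold in the authors' deposited value table. The call was kept in all 16 alternatives (limma adjusted p 9.08e-05 to 0.0306).

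Krt5 read 72.9, 69.9 and 70.8 in the untreated group and 71.1, 67.6 and 71.2 in the treated group, with a detection p of 0.418 or more on each. Krt15, a basal keratin of stratified epithelium, read 74.8 to 88.4 and passed detection on untreated array 3 and withaferin A array 3. Krt17, a stress-related type I keratin, read 86.3, 74.3 and 72.6 in the untreated group and 101.1, 84.7 and 83.9 in the treated group. The first of the withaferin A arrays was the 1 array with Krt17 above background. The raw values overlapped, while the normalized log2 values did not (4.84, 4.52 and 4.53 untreated, and 5.72, 4.99 and 4.91 treated), in a range where 5 of the 6 were not above background. Krt5, Krt15 and Krt17 were not tested in the main comparison. With all probes admitted to the test, their log2 changes were 0.017 (Krt5, adjusted p = 0.942), 0.11 (Krt15, adjusted p = 0.844) and 0.57 (Krt17, adjusted p = 0.350) in limma, and values this near background understate any change.

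The basal set is thus represented in the test by Krt14 alone, and its median change of 2.92 is that of 1 gene. The 4 simple keratins had changes of -0.70 to 0.35, with a median of -0.028 and a mean of -0.10. The mean of the simple set was 10.43, 9.90 and 10.79 in the untreated group (arrays 1 to 3) and 10.18, 9.67 and 10.97 in the treated group (arrays 1 to 3), so the groups overlapped. These means move with Krt19. Without it they were 11.86, 11.65 and 11.75 untreated and 11.49, 11.29 and 11.74 with withaferin A, which also overlapped. The basal change minus the mean simple change was 3.02, and it was 1.01 when all 4 basal keratins were admitted regardless of detection. Both are descriptions without a test.

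Krt6a and Krt23 lie outside both sets. Krt6a, the type II partner of Krt16 in stressed epithelium, read 66.6 to 79.1 at one probe and 54 to 63.2 at the other and was above background on none of the 6 arrays. Krt23, a type I keratin known from human pancreatic cancer cells to be induced by histone deacetylase inhibitors, read 231.8, 180.3 and 124 in the untreated group and 74.5, 78.6 and 68 in the treated group. It was above background on all 3 untreated arrays and on none of the withaferin A arrays. Because the treated level was not well above background, the fall is given as a bound, against the lowest log2 intensity among detected probes of each treated array. On the background-corrected scale Krt23 was at least 3.22-fold lower, with measured mean log2 intensities of 6.69 ± 0.63 and 4.59 ± 0.15 (SD, n = 3 each) and a limma adjusted p of 0.00326. That bound does not carry over to the other scales, on which Krt23 was 1.96-fold lower (without background correction) and 2.15-fold lower (the authors' deposited value table). The limma adjusted p lay between 0.000165 and 0.0497 in the 15 alternatives that tested it, and the filter that asked for detection on all 6 arrays left it out. Because the probe was admitted through the untreated arrays alone and the treated values lay at background, these p-values describe a gene that had to differ to be tested.

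**Figure D3:**
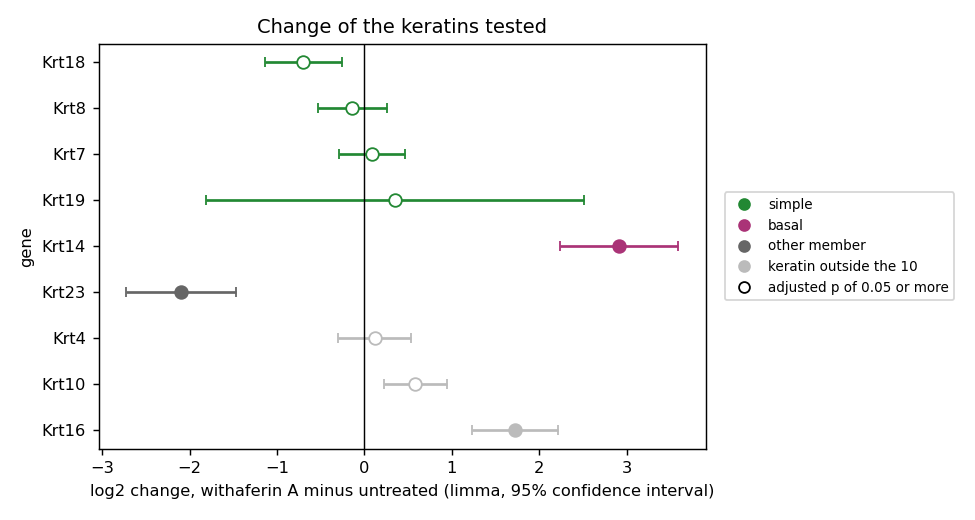
Log2 change (withaferin A minus untreated, horizontal axis) with its 95% confidence interval from limma for the 6 tested members and the 3 further keratins that were tested, filled where the adjusted p was under 0.05. Krt14 (2.92) and Krt16 (1.72) lie to the right of 0, Krt23 (-2.10) lies to the left, and the interval of Krt19 runs from -1.81 to 2.51.

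Promoter sequence is shown for the 2 members that passed and for Krt18, which had the largest change among the simple keratins. The sequences are RefSeq's, from build GRCm38.p6, and run from 250 bases before to 50 bases after the annotated gene start on the gene's own strand. They lie at chr11:100205981-100206280 (Krt14, minus strand), chr11:99493071-99493370 (Krt23, minus strand) and chr15:102027966-102028265 (Krt18, plus strand). Capitals mark matches to a search, on both strands, for motifs of factors that bind keratin or stress gene promoters.
Krt14: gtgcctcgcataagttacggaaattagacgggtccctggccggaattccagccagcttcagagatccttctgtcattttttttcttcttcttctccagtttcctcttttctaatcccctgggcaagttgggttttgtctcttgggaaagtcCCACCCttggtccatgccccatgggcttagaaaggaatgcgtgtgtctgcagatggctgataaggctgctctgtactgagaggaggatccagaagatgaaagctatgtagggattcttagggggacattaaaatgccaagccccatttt
Krt23: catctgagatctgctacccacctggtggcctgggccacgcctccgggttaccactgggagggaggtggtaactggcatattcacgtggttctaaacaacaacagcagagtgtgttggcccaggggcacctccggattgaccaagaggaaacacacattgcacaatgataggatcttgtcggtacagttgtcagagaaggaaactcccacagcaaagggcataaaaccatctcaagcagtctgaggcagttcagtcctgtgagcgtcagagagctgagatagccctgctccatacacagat
Krt18: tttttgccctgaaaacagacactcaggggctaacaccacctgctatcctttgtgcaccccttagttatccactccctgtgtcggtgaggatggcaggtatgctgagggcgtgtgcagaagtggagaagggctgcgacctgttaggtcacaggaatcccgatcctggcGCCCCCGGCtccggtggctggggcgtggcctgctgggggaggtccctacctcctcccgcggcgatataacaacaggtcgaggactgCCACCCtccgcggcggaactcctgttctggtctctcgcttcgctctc
The search covered the CACCC box read by Kruppel-like factors (CCACCC), the AP-2 site (GCCNNNGGC), the GATA site (AGATAA), the antioxidant response core (TGACNNNGC), the AP-1 site (TGANTCA), the heat shock element (GAANNTTC) and the p53 family half-site. The p53 family half-site was searched only in the form with CATG at its centre (RRRCATGYYY, with R for A or G and Y for C or T). A CACCC box was found in the Krt14 window, 99 bases before the start, and in the Krt18 window, where it begins 4 bases after the start. An AP-2 match was found in the Krt18 window, and no match of any of these motifs in the Krt23 window. Over all 32851 promoter windows of the table, 31.5% hold a CACCC box and 16.6% an AP-2 match, and the others are held by 11.2% (GATA), 12.4% (antioxidant response core), 7.81% (AP-1), 7.86% (heat shock) and 1.93% (p53 family). A match is a run of letters and not evidence of binding.

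Beyond the 10 members, the array carried probes for 37 of 43 other keratins on the list, and 3 of these were tested. Krt16, a stress keratin whose gene lies between those of Krt14 and Krt17 on chromosome 11, rose. It read 86.6, 74.9 and 89.8 on the untreated arrays, of which 1 was above background, and 162.2, 131.1 and 128.8 on the withaferin A arrays. The groups did not overlap. The log2 change was 1.72 (SE 0.22, limma adjusted p = 0.00270). The fitted 3.30-fold is no firm size, since the untreated mean of 4.83 lay under the lowest detected log2 intensity of each untreated array (4.84 to 4.98), and the probe was admitted to the test mainly through the treated arrays. With no background correction it was 1.70-fold, and the authors' deposited value table gave 1.84-fold. Krt14, Krt16 and Krt17 are closely related in sequence, and the probe sequences were not used here, so signal shared between their probes cannot be told apart from separate changes. Krt10, a suprabasal keratin, had a log2 change of 0.58 that did not pass (limma adjusted p = 0.0641). It passed in 3 of 16 alternatives, which were no background correction (0.0468), array weights (0.0394) and the authors' deposited value table (0.0108). Krt4 had a change of 0.12 (limma adjusted p = 0.750). Among the 37, 29 were above background on no array, among them Krt1, Krt2, Krt6b and Krt20. Type II keratins tested were thus Krt7, Krt8 and Krt4, while the type II partners of Krt14 and Krt16 (Krt5, Krt6a, Krt6b) were not detected.

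By the rule for likeness, the 5 named genes whose log2 values ran most closely with those of Krt14 over the 6 arrays were Adgra3, Ppp2r1b, Gss, Rhot2 and H2bc14, with Pearson's r of 0.993 to 0.997. All points share the 2 groups, and 138 of 9756 genes had r above 0.95. Gss, glutathione synthetase, changed by 1.13 on the log2 scale (limma adjusted p = 0.00543) and H2bc14, a histone H2B gene, by 3.71 (adjusted p = 0.000105).

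Genes whose products anchor keratin filaments at desmosomes and hemidesmosomes had no member past the test as run here. Alternatives were looked at only for the 2 named by the rule, Ppl and Plec, and each passed in some. For the other anchors they are not given. Of the 13 on the array, 12 were tested and the median change was -0.035. Ppl, the plakin periplakin, had a log2 change of -0.69 (limma adjusted p = 0.105), and its 2 other probes had changes of -0.58 and -0.34. Ppl passed in 5 of 16 alternatives, among them no normalization between arrays (limma adjusted p = 0.0133), median scaling (0.0194), array weights (0.0218) and the authors' deposited value table (0.00298). Plec, the plakin that ties intermediate filaments to hemidesmosomes and to other filaments, had a change of 0.51 (limma adjusted p = 0.161). Its other tested probes had changes of 0.54, 0.39, 0.21 and -0.073. The mean over its tested probes was 0.32 (limma adjusted p = 0.228). Plec passed in limma with array weights (adjusted p = 0.0337) and in the authors' deposited value table (0.0114). Itgb4, the hemidesmosomal integrin subunit, had a change of -0.39 (limma adjusted p = 0.270).

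Of 20 keratin gene regulators, 13 were tested, 1 rose, 1 fell and 11 did not pass, with a median change of -0.026. Trp63, the p63 transcription factor that maintains basal epithelial cells and directs Krt5 and Krt14 transcription, read 121, 160.6 and 152.8 in the untreated group and 75.4, 66.1 and 65.7 in the treated group. All 3 untreated values were above background, and none of the treated ones. On the background-corrected scale it was at least 2.46-fold lower, with measured mean log2 intensities of 6.30 ± 0.40 and 4.48 ± 0.14 (SD, n = 3 each, limma adjusted p = 0.00154). That bound does not carry over to the values without background correction (1.76-fold lower) or to the authors' deposited value table (1.93-fold lower). Trp63, like Krt23, was admitted to the test through the untreated arrays alone, and its other probe was at background on all arrays. Klf5, a Kruppel-like factor of proliferating basal epithelium, read 1640.4, 1454.2 and 942.3 in the untreated group and 2344, 2262.3 and 2062.8 in the treated group. It rose 2.00-fold (log2 change 1.00, SE 0.19, limma adjusted p = 0.0169), a call lost with no filter on dim probes (adjusted p = 0.0647) and without withaferin A array 1 (adjusted p = 0.0872). Klf4 had a change of -0.89 (limma adjusted p = 0.0917), Tfap2a, which encodes an AP-2 factor, one of -0.13 (adjusted p = 0.717) and Gata3, a luminal regulator, one of 0.097 (adjusted p = 0.820).

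**Figure D4:**
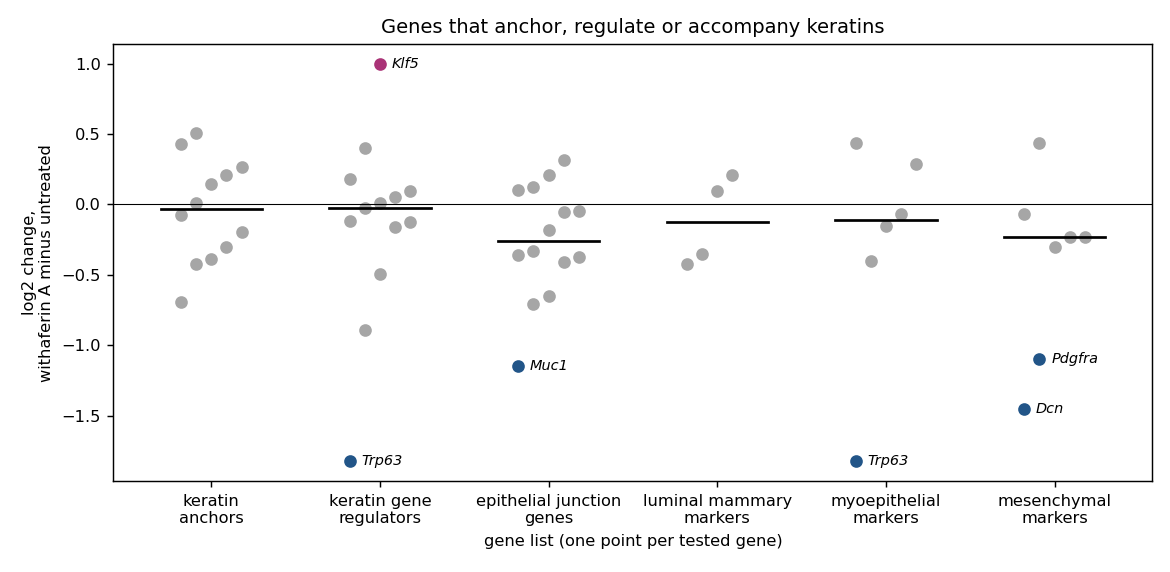
Log2 change (withaferin A minus untreated, vertical axis) of each tested gene in 6 lists (horizontal axis), coloured and named where the limma adjusted p was under 0.05, with a bar at each list's median. Klf5 lies above 0 and Trp63, Muc1, Dcn and Pdgfra lie below, and no keratin anchor gene is named.

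The epithelial and other cell type lists served to check the label and to show what moved beside the keratins. Of 16 epithelial junction genes 14 were tested, among them Cdh1 (E-cadherin), Cldn3, Cldn4 and Cldn7, while Epcam and Cldn1 were above background on no array. The list median was -0.26 and 1 gene fell. This was Muc1, a luminal surface mucin, with a log2 change of -1.15 (limma adjusted p = 0.0166), 2 of its 3 other tested probes also passing. It was 2.22-fold lower, or 1.40-fold without background correction, and its call was lost in the latter fit (adjusted p = 0.0553), with no filter (adjusted p = 0.0832) and when untreated array 2 (0.0535), untreated array 3 (0.0786) or treated array 2 (0.0562) was left out. Ocln, the tight junction protein occludin, had a change of -0.71 (limma adjusted p = 0.124). It passed in 4 of 15 alternatives, which were no normalization between arrays (limma adjusted p = 0.0393), the authors' deposited value table (0.0463), array weights (0.0178) and the fit without withaferin A array 3 (0.0426). Of luminal mammary markers, 4 of 12 on the array were tested (Cd24a, Csn3, Esr1, Gata3), 0 passed in limma, at an adjusted or an unadjusted p of 0.05, and the median was -0.13. Esr1, the oestrogen receptor, had a change of -0.42 (limma adjusted p = 0.216), and it passed in 1 of 16 alternatives, without normalization between arrays (0.0409). Cd24a, a luminal surface antigen, had a change of 0.21 (limma adjusted p = 0.578). Pgr, Elf5, Kit, Csn2, Wap, Aldh1a3 and Ly6d were on no array above background. Of myoepithelial markers, 6 of 10 were tested and Trp63 alone passed, with a median of -0.11. Acta2, smooth muscle actin, had a change of 0.44 (limma adjusted p = 0.110), and it passed in 1 of 15 alternatives, with array weights (0.0160). Cnn1, Tagln, Myh11 and Oxtr were on no array above background.

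Of mesenchymal markers, 7 of 15 were tested and 2 fell. Dcn, the proteoglycan decorin, had a log2 change of -1.45 (limma adjusted p = 0.00778), and Pdgfra, a growth factor receptor of mesenchymal cells, one of -1.10 (adjusted p = 0.0327). The other Pdgfra probe, at 0.016, read 80.8 to 94.3 and was above background on 3 of the 6 arrays, too dim to show such a fall. The Dcn call was lost with no filter on dim probes (limma adjusted p = 0.0614). The Pdgfra call was lost in 7 of 16 alternatives (limma adjusted p up to 0.135), 4 of them fits that left out untreated array 2 or 3 or withaferin A array 1 or 2. Vim itself had a change of -0.23 (limma adjusted p = 0.543). The summed raw intensity of the mesenchymal list was 24360 to 26680 on untreated and 15880 to 21820 on withaferin A arrays, and that of the myoepithelial list 18220 to 23120 and 14430 to 16550. These sums are carried by bright probes and are not normalized, and the median raw intensity over all tested probes was itself 218.5 to 235.9 untreated and 191.8 to 202 with withaferin A. After normalization, the mean log2 level of the tested genes was 10.17 to 10.52 untreated and 9.69 to 10.07 with withaferin A for the mesenchymal list, and 8.88 to 8.94 and 8.501 to 8.70 for the myoepithelial list. Both lists hold the tested genes Acta2 and Sparc, so their levels are not separate observations. The part of these lists in the keratin results was not tested. Col1a1, Col3a1, Thy1, Pdgfrb, Lum and Postn were on no array above background. Of 8 immune markers, 7 were above background on no array, Ptprc among them. The tested one, Csf1r, was above background on 1 untreated and 2 withaferin A arrays. Its log2 change was 0.17 (limma adjusted p = 0.532). The summed raw intensity of the immune list was 586 to 599.9 untreated and 578.2 to 595.1 with withaferin A. Of 8 endothelial markers 2 were tested (Egfl7, 0.24, and Esam, 0.24, with limma adjusted p of 0.531 and 0.590), and Pecam1 and Cdh5 were on no array above background.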

How the data were processed

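The authors deposited a table of linear probe intensity values for 6 bead arrays, 3 per group, named as not normalized, with a detection score beside each intensity. That deposited score rises with intensity and was read as 1 minus the detection p named in its header. The authors also deposited a log2 value table, whose same-numbered columns sum to 0 within 1.00e-06. Set against the intensities (slopes of 1.01 to 1.11), it holds log2 intensities centred within a pair, with the sign as labelled. Its column medians were -0.000566, -0.00265 and -0.00108 untreated and 0.000566, 0.00265 and 0.00108 with withaferin A, and its normalization is not stated in the labels or headers.

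Values were corrected with the normexp model (negative controls estimated through the detection p), quantile-normalized after adding 16 (limma 3.58.1, R 4.3.3) and taken to log2. Of 45281 probes, 19077 were tested with lmFit and eBayes, two-sided, withaferin A minus untreated, adjusted by Benjamini-Hochberg over all of them. A gene was represented by its brightest tested probe. The platform annotation lists 34903 probes, 18 with several symbols, and RefSeq gene IDs changed 0 symbols. The number of arrays limits the precision. On data simulated for this comparison (19077 probes), limma called 76 of 100 probes changed 2-fold, 100 of 100 changed 4-fold and 14 of 18877 unchanged. The simulated errors were normal and independent, with the moderated variances, and the changes were added after background correction and normalization. Patterns shared between arrays and changes understated near background are therefore not covered by these counts.

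The 10 members and the gene lists were chosen with earlier results of these data known. All members are named. From each other list the rule named up to 6 called genes by size of change, or the 2 with the smallest p where under 2 passed, and, for likeness, 5 genes closest to the member of smallest p. Klf4, Tfap2a, Gata3, Itgb4, Krt4, Vim and the detection of single markers were added after their values were seen, and the promoter motifs were chosen likewise. Alternatives covered background correction, normalization, the filter, array weights, the variance model, the mean over probes, the replicate block and leaving out each array. A further alternative was the value table, compared as same-numbered pairs.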

Additional observations from a re-analysis of the deposited data

How the results depend on the processing

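Krt14 kept direction and call in every alternative. Krt23 did so wherever it was tested, but its probe entered the main test through the untreated arrays alone, so this is a description. Genes passing numbered 1688 without normalization between arrays (160 higher, 1528 lower), 1428 with median scaling (172 higher, 1256 lower), 2687 in the deposited value table, 337 with no filter (172 higher, 165 lower), 2150 with array weights (whose estimate stopped short of its convergence tolerance) and 242 to 888 with 1 array left out, against 666 (274 higher, 392 lower). The median change of all genes was -0.23 without normalization and -0.19 with median scaling. With the replicate block 1023 genes and 2 keratins passed, and Ppl passed (adjusted p = 0.0282 in limma). In the main fit the array numbers were not taken as a pairing, since not every array correlated best with its own number. The deposited value table was compared as same-numbered pairs, so its 2687 genes reflect both the table and the pairing. Deviations of same-numbered arrays correlated at 0.267, -0.0386 and 0.318, and those of different-numbered arrays at -0.391 to 0.267. The authors' value table is centred within same-numbered arrays, and Krt19 and Car9 kept their order by number in both groups. The main fit may thus leave out a pairing. Keratin calls, 2 at first, numbered 1 with detection required on all 6 arrays, which leaves Krt23 out, and 2 to 3 with 1 array left out. The basal median, 2.92, was 1.89 with background left in, 2.04 from the deposited value table, 0.34 unfiltered and 2.57 to 3.12 with 1 array left out. Basal minus simple, 3.02, was 2.01, 2.16 and 1.01 in those 3 settings and 2.76 to 3.20 with 1 array left out. The simple median lay between -0.45 and 0.059. Changes that turned sign were those of Krt7 (-0.15 without normalization, -0.11 with median scaling, -0.018 with array weights, and -0.022 to 0.18 with 1 array left out), Krt19 (-0.70 to 1.23 with 1 array left out, negative at -0.43 and -0.70 without untreated array 2 and treated array 3) and Egfl7 (-0.048 without normalization, -0.0057 with median scaling). Klf5 and Muc1 lost their calls in 2 and 5 settings. The causes were not tested. Low signal over background limits Krt5, Krt6a, Krt15 and Krt17, which were too dim to be tested.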

Other observations

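The array-to-array pattern of Krt19 was shared by other genes. This was looked up after its values had been seen, and the points are the same 6 arrays, so the r values are descriptions. The 10 named genes closest to Krt19 were Kat6a (Pearson's r 0.997 over 6 arrays), Upk3bl (0.991), Nipa1 (0.987), Tnfrsf9 (0.986), Pwwp2b (0.985), Ess2 (0.979), Numa1 (0.977), Egln3 (0.976), Mgarp (0.974) and Pcbd2 (0.974). Among them Egln3, which encodes a prolyl hydroxylase, and Mgarp are known to be induced by hypoxia. Further genes known for that were picked by name or for their large within-group SD, not by their r. They are no full list, and how many such genes ran otherwise was not counted. Pgm1 ranked 14 of 9756 by r, Ndrg1 21, Aldoc 28, Car12 61 and Car9 133, with r of 0.967, 0.962, 0.952, 0.928 and 0.892. Car9 had log2 intensities of 11.61, 9.22 and 11.97 in the untreated group (arrays 1 to 3) and 11.46, 9.35 and 12.12 in the treated group (arrays 1 to 3), with a log2 change of 0.041 (limma adjusted p = 0.983). In each group array 2 was the lowest and array 3 the highest, as for Krt19. By within-group SD Mgarp, Car9 and Aldoc ranked 4, 5 and 8, where Krt19 ranked 1. Prl2c3, Prl2c2, Prl2c4 and Chac1, at ranks 2, 3, 6 and 7, had r of 0.547, 0.542, 0.556 and -0.541 with Krt19. Those r values also take in their log2 changes between the groups (3.79, 3.64, 3.52 and 2.11). In the untreated group Prl2c3 (7.313, 4.68 and 8.835 on arrays 1 to 3), Prl2c2 and Prl2c4 had the array order of Krt19. With withaferin A array 3 was again the highest for these Prl2c genes, but array 1 the lowest. Chac1 was highest on array 2 and lowest on array 3 in each group.

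Csn3, the milk protein kappa-casein of luminal cells, ran the other way, with log2 intensities of 7.35 to 9.91 untreated and 6.93 to 9.25 with withaferin A, array 2 being the highest and array 3 the lowest in each group (r = -0.971 with Krt19 over 6 arrays). Its within-group SD of 1.29 ranked 9 of 9756, and its change of -0.35 did not pass (limma adjusted p = 0.803). The labels give 3 passages without tying any of them to an array number.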
